A study of Mus musculus with 4 samples.

Results

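The 10 genes described here encode chaperones, folding enzymes and stress factors of the endoplasmic reticulum (ER): Hspa5, Hsp90b1, Calr, Canx, Pdia3, Pdia4, Pdia6, Sdf2l1, Herpud1 and Xbp1. They were taken as a given list and matched by symbol, and all 10 had counts in each of the 4 libraries, among 22078 genes with a count in any library. The libraries come from renal cortex dissociated with collagenase and profiled by Drop-seq, which tags each captured mRNA with a cell barcode and a unique molecular identifier (UMI). Of the 4, 2 come from C57BL/6-Ins2Akita/J mice (the Akita group) and 2 from their wild-type counterparts. The Akita allele is a germline mutation of Ins2 that makes proinsulin misfold in pancreatic beta cells, where the gene is expressed, and the animals become diabetic. Ages were 116 and 119 days for Akita and 45 and 51 days for wild type, so genotype and age cannot be told apart. The cortex of 1 kidney was used per mouse, and the labels' growth protocol gives a longer housing time than these ages.

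Proteins made for secretion or for the plasma membrane fold in the ER. The chaperone BiP (Hspa5) binds unfolded chains, lectin chaperones such as calnexin and calreticulin hold glycoproteins, and protein disulphide isomerases form and rearrange disulphide bonds. When unfolded protein accumulates, the sensors IRE1, ATF6 and PERK start the unfolded protein response, and the factors spliced XBP1 and cleaved ATF6 raise transcription of chaperone genes through ER stress elements in their promoters. Proximal tubule cells take up and resorb filtered protein and carry large amounts of membrane transporters, and cells of the thick ascending limb secrete uromodulin, a glycoprotein rich in disulphide bonds.

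The ER stress elements of the members are shown because they are the sequences through which many of these genes are known to respond together. Each line gives 20 bases on either side of the match, 5′ to 3′ on the strand of the gene, from RefSeq promoter windows on GRCm38.p6 that span 250 bases before to 50 after the annotated start. All 10 members had a window. Capitals mark the match to the ER stress element (ERSE: CCAAT, 9 bases of any kind, CCACG) or to ERSE-II (ATTGG, 1 base of any kind, CCACG), each searched on both strands. The printed Hspa5 stretch lies inside the longer gene model of the GENCODE annotation, which begins at 34771970 on chromosome 2.
Hspa5, chr2:34772005-34772063, + strand: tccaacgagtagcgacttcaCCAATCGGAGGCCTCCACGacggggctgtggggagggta
Hsp90b1, chr10:86705618-86705676, - strand: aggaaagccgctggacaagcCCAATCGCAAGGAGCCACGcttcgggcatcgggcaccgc
Hsp90b1, chr10:86705513-86705571, - strand, reverse complement of the letters: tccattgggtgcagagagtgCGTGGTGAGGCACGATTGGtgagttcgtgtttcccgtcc
Calr, chr8:84847055-84847113, - strand, reverse complement of the letters: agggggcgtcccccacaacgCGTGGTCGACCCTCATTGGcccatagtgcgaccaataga
Canx, chr11:50325780-50325838, - strand: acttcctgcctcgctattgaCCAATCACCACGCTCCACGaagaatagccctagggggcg
Pdia6, chr12:17266471-17266529, + strand: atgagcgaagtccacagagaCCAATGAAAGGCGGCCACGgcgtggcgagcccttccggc
Herpud1, chr8:94386357-94386407, + strand: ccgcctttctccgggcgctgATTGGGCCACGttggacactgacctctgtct

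The ERSE letters were found in 39 of 32851 promoter windows of that length (0.119%), and 5 of the 10 members were among the genes that hold them. Hsp90b1 holds 2 matches, which begin 212 and 107 bases before its start. ERSE-II was found in 12 windows (0.0365%), with Herpud1 as the member. The UPRE letters TGACGTGG were found in 222 windows (0.676%) and in 0 member windows. For Pdia3, Pdia4, Sdf2l1 and Xbp1 these letters are not in the window, which says nothing of elements elsewhere or of looser matches. Many of these genes are already known to respond through such elements, so the shares are a description and not a test of enrichment.

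**Figure D1:**
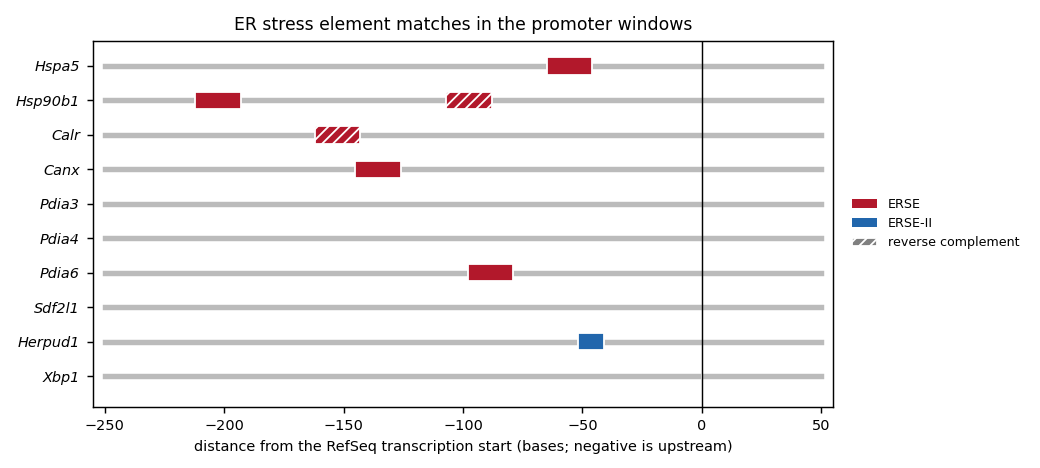
Positions of ERSE (red) and ERSE-II (blue) matches in the promoter window of each of the 10 genes, in bases from the RefSeq start (negative is upstream); hatching marks matches in the reverse complement. The matches begin between 52 (Herpud1) and 212 (Hsp90b1) bases before the start.

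The 4 libraries held between 1016719 and 1303453 UMIs, and 1916 barcodes passed as cells (311 and 600 in Akita replicates 1 and 2, 564 and 441 in wild-type replicates 1 and 2). Akita replicate 2 and wild-type replicate 1 shared 884 cell barcodes, against 3 or 4 in every other pair of libraries. Of the cells of Akita replicate 2, 73.0% carried a shared barcode, and of those of wild-type replicate 1, 80.5%. These libraries are therefore not independent, and results are also given with each shared barcode kept in the file that holds relatively more of its UMIs, which leaves 432 and 308 cells. For comparisons between cell classes the pair was summed into 1 unit, so that 3 units remained. Cells were clustered without any of the listed ER genes and named from marker genes. The classes were 1454 proximal tubule-like, 177 loop of Henle-like, 101 distal convoluted tubule-like, 106 intercalated-like, 63 connecting tubule or principal-like and 15 macrophage or dendritic-like cells. The loop of Henle-like and distal convoluted tubule-like cells were 2 parts of 1 cluster split further, and they shared markers: Slc12a3, the thiazide-sensitive cotransporter, stood at 9438 CPM (UMIs of the gene scaled by all UMIs of the same cells) in distal convoluted tubule-like and 3471 CPM in loop of Henle-like cells. Kap, an abundant proximal tubule mRNA, stood at 41361 CPM in proximal tubule-like cells and at 5652 to 6650 CPM in the other tubule classes. S1-like proximal tubule cells held it at 7074 CPM and S3-like cells at 75139 CPM. Whether Kap in the other classes came from free RNA or from doublets, which were not removed, was not tested.

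Hsp90b1, the ER paralogue of the HSP90 chaperone, gave the most UMIs of the 10 genes, 4220 in all retained cells, followed by Hspa5 with 2509. Calr (calreticulin) gave 1683 UMIs, Canx (calnexin) 1646 and the glycoprotein disulphide isomerase gene Pdia3 874. The remaining 5 were sparse: Herpud1, an adaptor for degradation of ER proteins, gave 305, Pdia6 298, the stress factor Xbp1 219, Pdia4 167 and Sdf2l1, a cofactor of BiP, 33. UMIs are counted at the 3′ end of transcripts, and the order of genes by UMI number was not read as an order of expression. Reads were assigned per gene, so the spliced and unspliced forms of Xbp1 mRNA, which mark activity of IRE1, cannot be told apart.

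On GRCm38, the annotation places Hspa5 (ENSMUSG00000026864) at chr2:34771970-34777547 on the + strand, Hsp90b1 (ENSMUSG00000020048) at chr10:86690209-86705509 on the - strand, Calr (ENSMUSG00000003814) at chr8:84841850-84846934 on the - strand, Canx (ENSMUSG00000020368) at chr11:50293961-50325673 on the - strand and Xbp1 (ENSMUSG00000020484) at chr11:5520659-5525893 on the + strand. It places Pdia3 (ENSMUSG00000027248) at chr2:121413775-121438687 on the + strand, Pdia4 (ENSMUSG00000025823) at chr6:47796141-47813430 on the - strand, Pdia6 (ENSMUSG00000020571) at chr12:17266545-17284770 on the + strand, Sdf2l1 (ENSMUSG00000022769) at chr16:17130138-17132383 on the - strand and Herpud1 (ENSMUSG00000031770) at chr8:94386438-94395377 on the + strand. The counts cover whole genes and do not separate exons from UTRs.

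The first question was whether these genes differ between Akita and wild-type cortex. The summed level of the 10 genes in all retained cells was 4333 and 4513 CPM in the Akita libraries against 4002 and 4082 CPM in the wild-type ones. In proximal tubule-like cells it was 4473 and 4689 against 3996 and 4083 CPM. Both Akita libraries thus lay above both wild-type libraries in either set of cells. Of single tested genes, 12.6% had that order in all retained cells and 11.6% in proximal tubule-like cells. The main chaperones were high in different Akita libraries. In all retained cells Hspa5 stood at 1194 and 840 CPM in them, and Hsp90b1 at 1312 and 1724 CPM, in the same library order. The order of the sums therefore does not show a rise shared by all members. No member passed the test between genotypes. In all retained cells 0 of 9 tested members were called, where 0 of 7169 genes (0.0%) passed edgeR's quasi-likelihood test at a Benjamini-Hochberg adjusted p under 0.05. At an unadjusted p under 0.05, 68 of these genes passed with edgeR, 7 with DESeq2 and 56 with limma-voom, and none of the 3 tools called a gene after adjustment. Sdf2l1 did not pass the filter on low counts, with 5 and 13 UMIs in the Akita libraries against 11 and 4 in the wild-type ones.

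Hspa5 stood at 1194 and 840 CPM in the Akita libraries against 746 and 855 CPM in the wild-type ones. Akita replicate 1 was far above the other 3, among which Akita replicate 2 lay between the wild-type values, so the groups overlapped. Its log2 fold change, Akita against wild type, was 0.33 ± 0.22 (SE), and edgeR's adjusted p was 1.00. It was 0.12 without Akita replicate 1 and 0.51 without Akita replicate 2. Hsp90b1, the other main luminal chaperone, stood at 1312 and 1724 against 1494 and 1379 CPM. Here Akita replicate 2 was the high library and Akita replicate 1 the lowest of the 4, and the fitted difference was 0.08 ± 0.23.

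For the lectin chaperones, Calr was 635 and 654 CPM in the Akita libraries against 559 and 541 CPM in the wild-type ones, or 644 ± 13.5 against 550 ± 12.3 CPM (SD, n = 2 each). The groups did not overlap, yet edgeR gave 0.22 ± 0.21 with an adjusted p of 1.00. Canx was 563 and 609 against 608 and 537 CPM, and its groups overlapped. Of the disulphide isomerases, Pdia6 was 124 and 111 against 93.5 and 98.0 CPM, without overlap, at a fitted difference of 0.29 ± 0.24. Pdia3 (292 and 315 against 266 and 365 CPM) and Pdia4 (53.8 and 56.9 against 55.4 and 69.6 CPM) overlapped between the groups. Among the stress factors, Herpud1 was 80.7 and 108.5 against 91.0 and 147.7 CPM and overlapped. Xbp1 was 69.9 and 76.8 against 77.5 and 83.8 CPM, with both Akita libraries just below both wild-type libraries. Calr and Pdia6, 2 of 9 tested members, thus had both Akita libraries above both wild-type libraries, as did 12.6% of all tested genes. Xbp1, 1 of 9, had both below, as did 11% of all tested genes.

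Proximal tubule-like cells gave the same outcome. Here 0 of 6100 genes (0.0%) were called by edgeR, DESeq2 or limma-voom (59, 7 and 55 at an unadjusted p under 0.05), and 0 of 9 tested members. Pdia6 had the largest fitted difference of the members, 0.55 ± 0.27, from 118 and 112 CPM in the Akita libraries (51 and 63 UMIs) against 78.1 and 77.7 CPM in the wild-type ones (51 and 43 UMIs). Its values within each group were close together and the groups were apart, but the unadjusted p was 0.056 and the adjusted p 1.00. Hspa5 (1251 and 885 against 758 and 882 CPM) and Calr (672 and 704 against 571 and 547 CPM) also had both Akita libraries above both wild-type libraries. The share of tested genes with that order was 11.6%, against 3 of 9 members, and without Akita replicate 1 the fitted Hspa5 difference went from 0.37 to 0.16. Pdia4 and Xbp1 had the opposite order, 2 of 9 members against 11.2% of genes.

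After assigning every shared barcode to a single file, the differences of these 3 genes in proximal tubule-like cells were larger: 1.06 ± 0.34 for Pdia6, 0.59 ± 0.27 for Hspa5 and 0.58 ± 0.27 for Calr. None passed the adjustment, and 0 of 5280 genes (0.0%) were called. At an unadjusted p under 0.05 with edgeR, 140 of these genes passed, against 59 of 6100 before the assignment. Pdia4, which had the opposite order before, then overlapped between the groups (51.0 and 63.6 against 52.1 and 68.7 CPM). The summed level of the 10 genes was then 4473 and 5079 CPM in the Akita libraries against 3431 and 4083 CPM in the wild-type ones. The rule that assigns a shared barcode to a file is an assumption, and it moves the members in the libraries on both sides of the comparison.

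**Figure D2:**
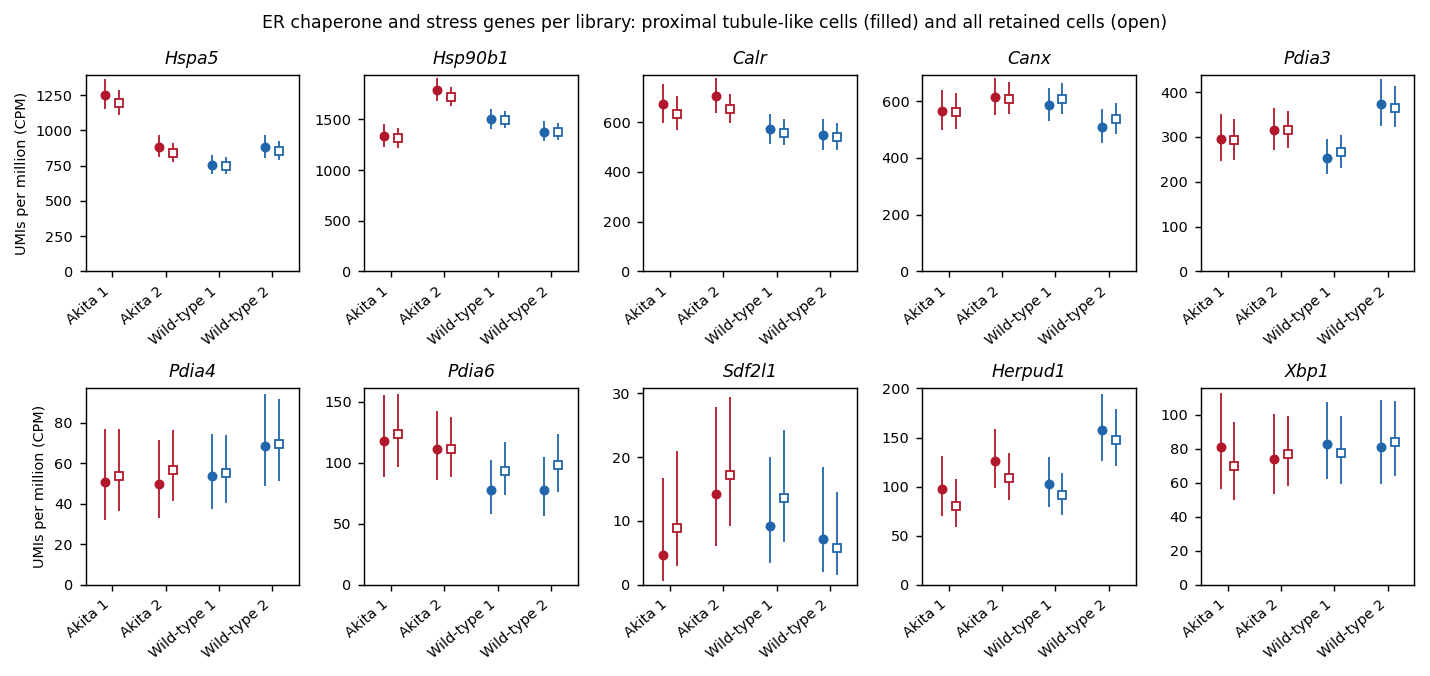
Level of each of the 10 genes in CPM (y axis, from 0) in the 2 Akita (red) and 2 wild-type (blue) libraries, for proximal tubule-like cells (filled circles) and all retained cells (open squares); bars are exact 95% Poisson intervals and cover counting error only. Calr and Pdia6 have both Akita libraries above both wild-type libraries, while Hspa5 is high in Akita replicate 1 (1194 CPM in all retained cells).

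Loop of Henle-like cells were the other class with at least 20 cells in each library. Of 521 genes tested, 0 (0.0%) were called by edgeR, with 10 at an unadjusted p under 0.05 (2 with DESeq2 and 10 with limma-voom, 0 after adjustment), and 0 of 5 tested members. Hsp90b1 (1248 and 1533 against 1690 and 1601 CPM) and Canx (483 and 540 against 763 and 585 CPM) had both Akita libraries below both wild-type libraries, as did 16.9% of the genes. These values rest on 12 to 28 UMIs per library for Canx. Whether the genotype difference itself differs between loop of Henle-like and proximal tubule-like cells was tested as an interaction, and 0 of 4614 genes (0.0%; 49 at an unadjusted p under 0.05) passed. With shared barcodes in a single file, 1 of 429 genes (0.233%) was called in loop of Henle-like cells and 1 of 4369 (0.0229%) in the interaction, and neither was a member. The interaction was -0.35 ± 0.33 for Hsp90b1 and -0.48 ± 0.42 for Canx.

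The wider ER machinery gave 0 called genes in any list between genotypes. In all retained cells this covered 13 ER oxidoreductases, 10 co-chaperones and exchange factors, 11 lectins and glucosidases, 11 genes of ER-associated degradation, 15 of the translocon, 4 prolyl isomerases and 7 sensors and PERK-arm factors of the unfolded protein response. The lists' median log2 differences ran from -0.03 (translocon) to 0.18 (prolyl isomerases), against 0.03 for the 9 members and 0.00 for all genes. Ddit3, which encodes the stress factor CHOP, was 43.0 and 11.9 CPM in the Akita libraries (24 and 9 UMIs) against 9.84 and 18.5 CPM in the wild-type ones (8 and 13 UMIs). It was high in Akita replicate 1, the library in which Hspa5 was also high, and Akita replicate 2 lay between the wild-type libraries. Atf4, the PERK-arm factor upstream of it, was 41.2 and 27.8 against 35.7 and 51.1 CPM. The co-chaperone genes Dnajb9 and Hyou1, known targets of the stress response, overlapped between the groups. Dnajb9 was 34.1 and 29.1 against 23.4 and 29.8 CPM, and Hyou1 was 19.7 and 22.5 against 16.0 and 25.6 CPM. Manf, an ER-resident stress protein, was 107.6 and 113.8 against 86.1 and 98.0 CPM, without overlap, at 0.27 ± 0.25. P4hb, the founding protein disulphide isomerase, was 109 and 155 against 166 and 148 CPM, the prolyl isomerase gene Ppib 43.0 and 58.2 against 49.2 and 42.6 CPM, and the translocon subunit Sec61b 181 and 217 against 176 and 202 CPM. These 3 overlapped between the groups.

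Immediate early and cytosolic heat shock genes, which respond to tissue dissociation, summed to 2230 and 1842 CPM in the Akita libraries against 1568 and 2582 CPM in the wild-type ones. Their order across libraries differed from that of the ER genes, and their part in the levels was not tested. Plasma cells, which hold much ER, were looked for through 8 markers. These summed to between 5.68 and 29.1 CPM per library, and Mzb1 and Ighg2c were at 0 in all 4. In these sums over many cells, fewer cells of a type and less RNA per cell cannot be told apart.

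The second question was how the members differ between tubule classes. These tests do not use the members to define classes, and they compare sums within the same units. Loop of Henle-like cells carried the set at nearly the level of proximal tubule-like cells: the 10 genes summed to 4065, 4252 and 4143 CPM in the 3 units (Akita replicate 1, the summed pair and wild-type replicate 2), against 4473, 4317 and 4083 CPM. In distal convoluted tubule-like cells the sums were 3563, 3754 and 3890 CPM, below the proximal tubule-like value in every unit. Intercalated-like cells had 5236, 4569 and 4018 CPM, with only 84 UMIs in the first value.

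Between loop of Henle-like and proximal tubule-like cells, 1 of 7 tested members was called, where 45.1% of 1901 genes were called, 20.6% higher and 24.5% lower in loop of Henle-like cells. That member was Herpud1, which fell by 1.95 on the log2 scale (-1.95 ± 0.63, edgeR adjusted p = 0.00797). Loop of Henle-like cells held 0, 4 and 1 Herpud1 UMIs in the 3 units (0, 48.2 and 25.4 CPM), against 42, 138 and 87 UMIs in proximal tubule-like cells (97.3, 113 and 157 CPM). It was lower in the summed pair and in wild-type replicate 2. In Akita replicate 1 a count of 0 allows up to 121 CPM, above the proximal tubule-like level there, so no difference was detectable in that unit. The call was lost without wild-type replicate 2 (-1.67, adjusted p = 0.0975) and with cells limited to 25% mitochondrial UMIs (adjusted p = 0.0589). It was kept in 10 of the 12 alternatives that gave Herpud1 an adjusted p, which ran from 9.2e-04 to 0.0975. The other tested members had 15 such alternatives. Herpud1 passed the filter on low counts only through the proximal tubule-like and distal convoluted tubule-like sums of wild-type replicate 2, where it was highest. The call was also made without that filter.

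Pdia6 went the other way. It stood at 241, 193 and 153 CPM in loop of Henle-like cells (6, 16 and 6 UMIs) and at 118, 93.6 and 77.7 CPM in proximal tubule-like cells, higher in each of the 3 units. The fitted difference was 0.93 ± 0.40, and the adjusted p of 0.0517 missed the threshold. It passed in 6 of 15 alternatives, with adjusted p from 0.0234 to 0.897. Pdia6 passed the filter on low counts only because of its loop of Henle-like sums, the class where it was highest. Without that filter it was not called. The 5 abundant members stayed within 0.27 of 0: Hspa5 -0.27 ± 0.20, Calr -0.24 ± 0.22, Hsp90b1 -0.05 ± 0.18, Canx -0.05 ± 0.22 and Pdia3 -0.04 ± 0.28. With each shared barcode kept in 1 file and the 4 libraries as blocks in place of the 3 units, Hspa5 had a difference of -0.51 ± 0.20. Its edgeR adjusted p was then 0.0312. Pdia4, Xbp1 and Sdf2l1 were too sparse to be tested.

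Distal convoluted tubule-like cells had lower levels of 3 of 7 tested members, where 51.2% of 1901 genes were called and 26.9% were called lower. Hsp90b1 was 1125, 1267 and 1026 CPM in the 3 units, against 1337, 1637 and 1379 CPM in proximal tubule-like cells, lower in all 3 (-0.49 ± 0.17, adjusted p = 0.0133). Calr was 488, 524 and 497 CPM against 672, 633 and 547 CPM, also lower in all 3 (-0.44 ± 0.19, adjusted p = 0.0485). Hspa5 was 988, 564 and 944 CPM against 1251, 817 and 882 CPM. It was lower in 2 of 3 units and higher in wild-type replicate 2 on this unscaled measure, and the fit gave -0.42 ± 0.18 (adjusted p = 0.0419). Canx (-0.03 ± 0.19), Pdia3 (-0.14 ± 0.23) and Pdia6 (-0.02 ± 0.38) were near 0. Herpud1 was 37.5, 59.7 and 182 CPM against 97.3, 113 and 157 CPM, a wide spread over 3, 9 and 11 UMIs, with a fitted difference of -0.72 ± 0.40.

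The calls in distal convoluted tubule-like cells were near the threshold. Without the normalization factors Hsp90b1 was at -0.34, Calr at -0.30 and Hspa5 at -0.28 with 0 called, while the median of all genes stood at 0.16 instead of 0.02. Relative to that median the 3 genes stood about as low as in the reported fit. Hsp90b1 kept its call in 12 of 16 alternatives, Hspa5 in 6 and Calr in 5, with adjusted p from 3.4e-04 to 0.0914, 0.0019 to 0.373 and 0.0034 to 0.265. Leaving out the summed pair ended all 3 calls, leaving out Akita replicate 1 ended those of Hspa5 and Calr, and leaving out wild-type replicate 2 ended those of Hsp90b1 and Calr. With shared barcodes kept in 1 file and the 4 libraries as blocks in place of the 3 units, all 3 were called. The differences were -0.60 ± 0.17, -0.56 ± 0.18 and -0.56 ± 0.19 for Hsp90b1, Hspa5 and Calr. The barcode assignment and the blocks changed together there, so their parts cannot be told apart. Distal convoluted tubule-like cells had a median of 1638 UMIs and 13.5% mitochondrial UMIs, against 788 and 19.5% in proximal tubule-like and 645 and 24.2% in loop of Henle-like cells. The part of depth in these differences was not tested.

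**Figure D3:**
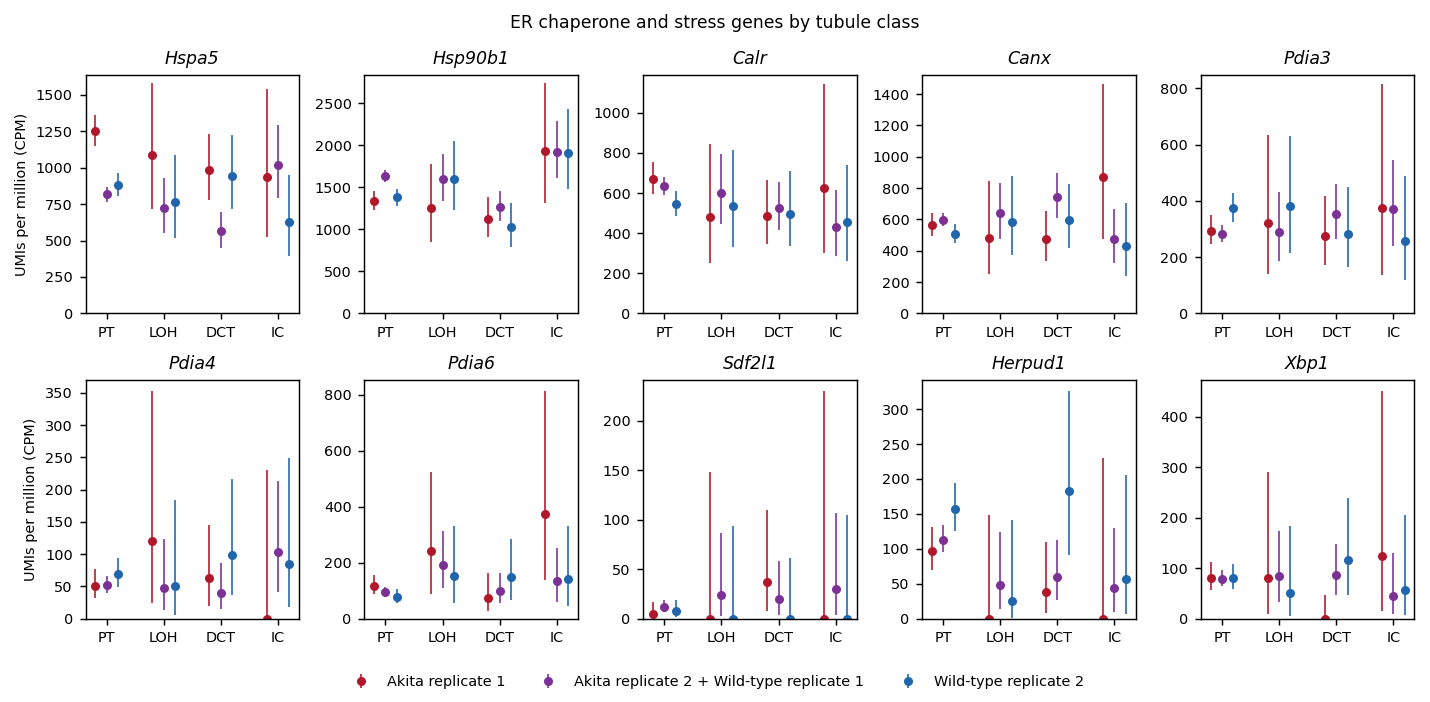
Level of each of the 10 genes in CPM (y axis, from 0) in proximal tubule-like (PT), loop of Henle-like (LOH), distal convoluted tubule-like (DCT) and intercalated-like (IC) cells, for Akita replicate 1 (red), the summed pair that shares barcodes (purple) and wild-type replicate 2 (blue); bars are exact 95% Poisson intervals. Hsp90b1 and Calr are lower in DCT than in PT in each unit, and Herpud1 in LOH is at 0, 48.2 and 25.4 CPM.

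Loop of Henle-like and distal convoluted tubule-like cells were also set against each other. Of 1901 genes 20 (1.05%) were called, 0.526% higher and 0.526% lower, and 0 of 7 tested members, with 2 members at an unadjusted p under 0.05: Hsp90b1 at 0.44 ± 0.20 and Pdia6 at 0.95 ± 0.47, both toward loop of Henle-like cells. The adjusted p was 0.403 and 0.505. Here too Pdia6 passed the filter on low counts only because of its loop of Henle-like sums.

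Within the proximal tubule, 290 cells were named S1-like, after the first segment, which takes up most of the filtered glucose and protein, and 135 S3-like, after the last, straight segment. Of 893 genes tested 164 (18.4%) were called, 9.63% of all tested higher and 8.73% lower in S3-like cells, and 1 of 5 tested members. Canx was lower in S3-like cells, at -0.93 ± 0.32 (adjusted p = 0.0249). Its levels were 762, 334 and 418 CPM in S3-like cells and 740, 730 and 843 CPM in S1-like cells, so it was lower in the summed pair and in wild-type replicate 2 and level in Akita replicate 1, where S3-like cells held 8 Canx UMIs. The call was kept in 6 of 11 alternatives (adjusted p from 2.3e-04 to 0.682) and was lost without the summed pair (-0.70) and without wild-type replicate 2 (-0.84). Hspa5 was 1613, 895 and 1318 CPM in S1-like and 1144, 843 and 902 CPM in S3-like cells, lower in S3-like cells in all 3 units at -0.40 ± 0.28 without a call. The S1-like clusters differed in Hspa5, with 950 CPM in that of 167 cells and 1316 CPM in that of 123 cells. The S3-like cells stood at 869 CPM when pooled. Hsp90b1 (0.14 ± 0.27), Pdia3 (0.10 ± 0.39) and Calr (-0.29 ± 0.31) were not called.

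**Figure D4:**
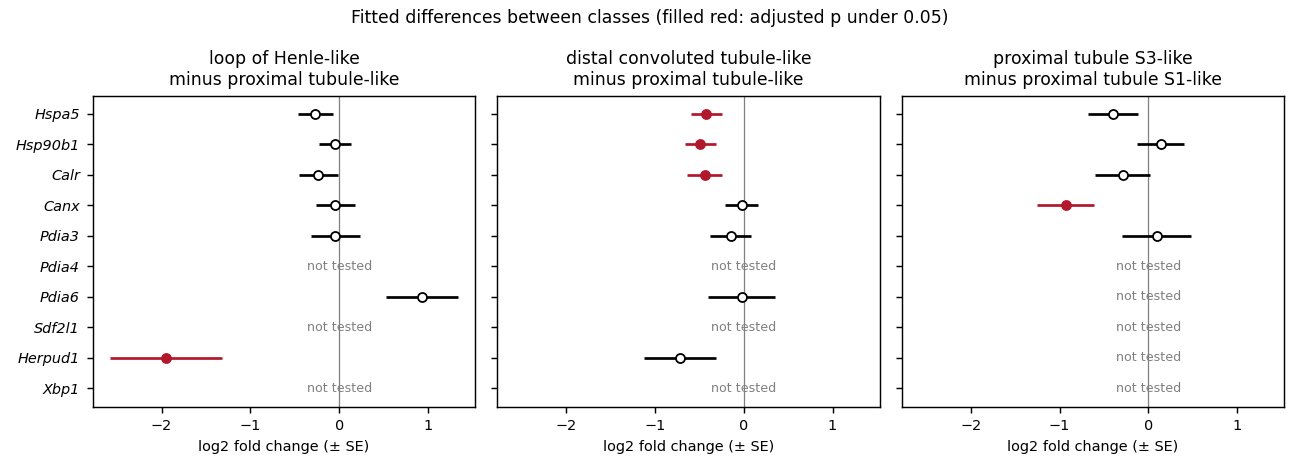
Fitted log2 fold change ± SE of each gene (x axis) for loop of Henle-like and distal convoluted tubule-like against proximal tubule-like cells and for S3-like against S1-like cells; filled red points have an adjusted p under 0.05, and genes marked not tested were too sparse. Herpud1 (-1.95) in loop of Henle-like cells is the largest difference of a member.

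Intercalated-like and connecting tubule or principal-like cells had 8 and 6 cells in Akita replicate 1 and were tested only after the minimum was lowered from 10 to 5 cells, a choice made after seeing the cell numbers. In connecting tubule or principal-like cells Hspa5 was 919, 619 and 277 CPM (4, 26 and 4 UMIs), lower than in proximal tubule-like cells in all 3 units (-0.88 ± 0.33, adjusted p = 0.0270). It was 1 of 6 tested members, where 34.1% of 1492 genes were called, 12.5% higher and 21.6% lower, and where the median of all genes was -0.25. In intercalated-like cells 0 of 6 members were called against proximal tubule-like cells, where 40.5% of genes were, 18.1% higher and 22.4% lower. Hsp90b1 was 1932, 1922 and 1909 CPM there, nearly equal in the 3 units, at 0.11 ± 0.24, and Calr had -0.66 ± 0.29 (adjusted p = 0.0547). Against loop of Henle-like cells 0 of 6 members were called in either class, where 13.9% of genes (5.9% higher, 8.04% lower) were called for intercalated-like and 2.48% (0.871% higher, 1.61% lower) for connecting tubule or principal-like cells.

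Of the other ER genes in the lists, 23 were tested between these classes. In loop of Henle-like against proximal tubule-like cells 5 were called, where 45.1% of all genes were, and in distal convoluted tubule-like cells 6 were, where 51.2% of all genes were. P4hb was at 80.5, 12.0 and 0 CPM in loop of Henle-like cells (2, 1 and 0 UMIs) and 100, 53.1 and 33.1 CPM in distal convoluted tubule-like cells, against 116, 190 and 168 CPM in proximal tubule-like cells. Its fitted differences were -3.04 ± 0.69 and -1.52 ± 0.42, both called (adjusted p = 1.6e-04 and 0.00145). Lman1, a lectin receptor that carries glycoproteins from the ER, was higher in both, at 402, 602 and 381 CPM and 263, 292 and 281 CPM against 109, 135 and 123 CPM (1.88 ± 0.28 and 1.03 ± 0.27). The prolyl isomerase gene Fkbp11 was at 40.2, 48.2 and 102 CPM in loop of Henle-like and 138, 86.2 and 132 CPM in distal convoluted tubule-like cells, and at 11.6, 4.92 and 10.8 CPM in proximal tubule-like cells (2.81 ± 0.83 and 3.58 ± 0.60). Manf was lower in distal convoluted tubule-like cells (-2.80 ± 0.61), with 0, 2 and 3 UMIs in the 3 units. Fkbp11 passed the filter on low counts only through distal convoluted tubule-like sums, and P4hb only through proximal tubule-like sums. These are the classes where each was highest. Manf passed that filter only through sums of other classes, since its distal convoluted tubule-like counts were too low.

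By list, 1 of 3 tested oxidoreductases (P4hb) was lower in both classes than in proximal tubule-like cells. Higher in both were 1 of 3 lectins (Lman1) and 1 of 2 prolyl isomerases (Fkbp11). Over all genes, 45.1% were called in loop of Henle-like and 51.2% in distal convoluted tubule-like cells. P4hb, Fkbp11 and Manf passed the filter on low counts only through classes where they were higher, so the counts by list are a description. Of 8 translocon genes, Srp14 was higher in both, Srp9 was lower in loop of Henle-like and Ssr3 lower in distal convoluted tubule-like cells. Of 5 co-chaperones, 0 were called in loop of Henle-like and 1 (Manf) in distal convoluted tubule-like cells, and of 2 degradation genes 0 in either. Sec62, the translocon gene with most UMIs, was not called in either class: it was 552, 517 and 459 CPM in proximal tubule-like cells, 644, 470 and 686 CPM in loop of Henle-like and 425, 511 and 480 CPM in distal convoluted tubule-like cells. Sec61b had -0.40 ± 0.38 and -0.02 ± 0.29. The sensors and PERK-arm factors were too sparse for a test between classes. Dissociation-response genes moved in both directions: Hspa8 was lower in loop of Henle-like and distal convoluted tubule-like cells (-0.84 ± 0.19 and -0.71 ± 0.17) and Ier3 higher (4.25 ± 0.71 and 5.09 ± 0.56), and Jund was higher in distal convoluted tubule-like cells (0.93 ± 0.34). Srp14, Srp9 and Ier3 are named after their values were seen. Their part in the differences of the ER genes was not tested.

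Single cells were compared at 400 UMIs each, since classes differ in depth. At least 1 UMI of the 10 genes was found in 75.6% of 1281 proximal tubule-like cells, 70.2% of 151 loop of Henle-like cells and 76.3% of 97 distal convoluted tubule-like cells, whose exact 95% intervals overlapped (73.1 to 77.9%, 62.2 to 77.4% and 66.6 to 84.3%). Without thinning the shares were 87.7%, 81.4% and 98.0%. The thinned shares left out 173, 26 and 4 shallower cells. Cells were pooled over the 4 libraries, with shared barcodes counted in each file that holds them. The intervals treat cells as independent and leave out the spread between libraries. They are a description and not a test between classes. Herpud1 was found in 3.83% of thinned proximal tubule-like and 1.32% of thinned loop of Henle-like cells, with overlapping intervals, and in 13.8% and 2.82% before thinning. No class is known to lack these genes, so no share could be set as a background, and the part of free RNA in these shares was not tested.

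Among clusters of proximal tubule-like cells the summed level ran from 2251 CPM in a cluster of 118 cells led by Gatm and Uap1l1 to 4653 CPM in an S1-like cluster of 123 cells led by Snhg11 and Slc5a12. A cluster of 160 cells, named neither S1-like nor S3-like, stood level with the latter at 4650 CPM. In the lowest cluster the sum was 2998 and 2125 CPM in the Akita libraries against 2722 and 1764 CPM in the wild-type ones, below the sum over all proximal tubule-like cells in each library. Hspa5 was 458 CPM and Calr 210 CPM there, while Herpud1 was 136 CPM, within the range of the other proximal tubule-like clusters. The next lowest proximal tubule-like cluster, at 3442 CPM, was one of 122 cells led by the haemoglobin genes Hba-a2 and Hba-a1. These levels describe clusters made from the same cells, and no test was applied.

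**Figure D5:**
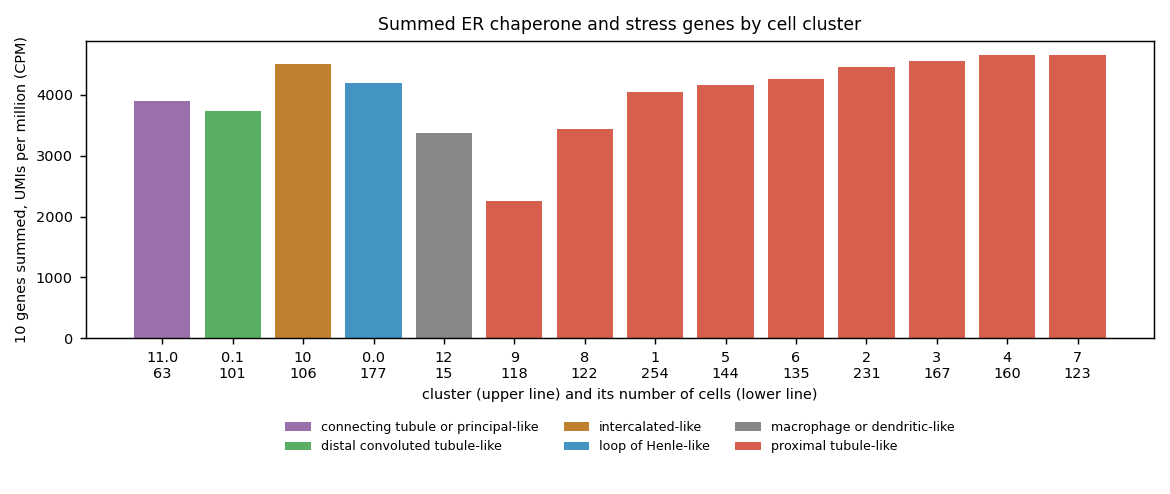
Summed CPM of the 10 genes (bars, from 0) in each cluster, with the cluster number and its number of cells on the x axis and colour for the named class. Proximal tubule-like clusters span 2251 to 4653 CPM, and the other tubule classes lie between 3730 and 4496 CPM.

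The genes outside the lists whose pattern over the 15 unit-by-class sums was most like that of the summed set, among 1398 genes with a mean of at least 100 CPM, were Rab7 (Pearson r = 0.74), Mme (0.73), Rps10 (0.73), Ccs (0.73) and Ctsl (0.72). The sums share libraries and depth, so these values are a description.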

How the data were processed

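Per the labels' protocols, cortex of 1 kidney per mouse was digested with collagenase IV and run through Drop-seq, with a cell barcode of 12 bases and a UMI of 8 bases. Alignment to GRCm38 and counting involved STAR 2.5.2b, featureCounts 1.6.0 and UMI-tools 0.5.3, per the submitters' processing notes, which give no order or settings. The authors deposited raw UMI counts, genes by barcodes, that were not normalized. Gene identifiers were matched to GENCODE symbols. The 4 strings per file that are not barcodes were left out.

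Barcodes with at least 200 genes and at most 50% mitochondrial UMIs were retained (scanpy 1.11.5, leidenalg 0.10.2: 2000 variable genes, 30 principal components, 15 neighbours, Leiden resolution 1). Of 117 listed ER and dissociation genes, the 111 found in the files were kept out of the clustering. A class needs at least 3 markers among its 50 leading genes. After seeing the data, an erythroid name was made to need 5% globin UMIs. Doublets were not removed. Names were rebuilt here, so class sizes may differ from those of other treatments.

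CPM is a gene's UMIs scaled by the total UMIs of the cells named. UMI sums per library (genotype) or per unit and class (unit as a block, at least 10 cells in every unit) were tested with edgeR 4.0.16 in R 4.3.3 (TMM, filterByExpr, quasi-likelihood, two-sided, Benjamini-Hochberg over all genes tested). DESeq2 1.42.0 and limma 3.58.1 (voom) were alternatives, and the fits were tested on simulated data. P-values measure only the spread between these libraries, part of which may be technical. Intervals are exact at 95%, and they and the limit of 3 counts behind a count of 0 cover counting error only.

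The members and lists were chosen with earlier results of these data known. Named genes were the 10 members, 8 further ER genes, the 3 members of each list with most UMIs, and the 5 genes most like the summed set (log2 of CPM + 10).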

Additional observations from a re-analysis of the deposited data

How the results depend on the processing

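No member was called between genotypes under any alternative run, in all retained, proximal tubule-like or loop of Henle-like cells or in the interaction. Of 749 single-gene values under an alternative, 648 kept their direction and side of the threshold, 32 lost a call, 9 gained one and 60 changed sign, 0 of them with a call in either fit. The cause of these changes was not tested. Between loop of Henle-like and proximal tubule-like cells the number of members called (1) was 2 with limma-voom, without TMM factors, without the filter on low counts, with 4 libraries as blocks and at resolution 0.5. It was 0 with classes of at least 5 cells, and 0 to 1 leaving out 1 unit. Between distal convoluted tubule-like and proximal tubule-like cells (3) it was 1 with DESeq2, at least 500 genes, at most 25% mitochondrial UMIs, resolution 0.5, resolution 2 or classes of at least 5 cells. It was 0 without TMM factors or without the library block, and 0 to 1 leaving out 1 unit. Between S3-like and S1-like cells (1) it was 0 with DESeq2, without the filter and at most 25% mitochondrial UMIs, and 0 to 1 leaving out 1 unit.

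Values near 0 changed sign as follows, on the log2 scale. By genotype with shared barcodes left out, Canx was -0.12 and Pdia3 0.0136 in all retained cells, and Canx -0.00281, Pdia3 0.0424 and Xbp1 0.000348 in proximal tubule-like cells. With shared barcodes in a single file, Pdia3 was 0.14 and Pdia4 0.0719 in all retained cells and Pdia3 0.19 in proximal tubule-like cells. At most 25% mitochondrial UMIs gave Xbp1 0.0166 in proximal tubule-like and Calr 0.00246 in loop of Henle-like cells, where at least 500 genes gave Hsp90b1 0.0279. In loop of Henle-like against proximal tubule-like cells Canx was 0.00229 and Pdia3 0.00239 with limma-voom. There, Canx was 0.0339, Hsp90b1 0.0384 and Pdia3 0.0364 without TMM factors, Canx 0.0144 and Pdia3 0.0927 at resolution 0.5 and Canx 0.0590 at resolution 2. In distal convoluted tubule-like against proximal tubule-like cells Canx was 0.00931 with limma-voom, and Canx was 0.12, Pdia3 0.00185 and Pdia6 0.12 without TMM factors. There, Canx was 0.0415 and Pdia6 0.0209 without the block, and Pdia6 0.00307 and 0.0261 at resolutions 0.5 and 2. In loop of Henle-like against distal convoluted tubule-like cells Calr was -0.12 at most 25% mitochondrial UMIs, Canx 0.0257 at resolution 0.5, and Calr -0.0270, Canx 0.10, Hspa5 -0.13 and Pdia3 -0.12 at resolution 2. In S3-like against S1-like cells Calr was 0.0649 at most 25% mitochondrial UMIs.

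Leaving out 1 library moved genotype values across 0 in all retained cells (Canx -0.11 to 0.17, Herpud1 -0.62 to 0.0156, Hsp90b1 -0.21 to 0.30, Pdia3 -0.22 to 0.14), in proximal tubule-like cells (Canx -0.0490 to 0.26, Herpud1 -0.48 to 0.0757, Hsp90b1 -0.19 to 0.37, Pdia3 -0.25 to 0.20) and in loop of Henle-like cells (Calr -0.23 to 0.0722, Hspa5 -0.11 to 0.59, Pdia3 -0.27 to 0.0602). Leaving out 1 unit did so for distal convoluted tubule-like against proximal tubule-like cells (Canx -0.15 to 0.0860, Pdia3 -0.38 to 0.0419, Pdia6 -0.30 to 0.23), loop of Henle-like against distal convoluted tubule-like cells (Canx -0.0925 to 0.0662, Hspa5 -0.0441 to 0.31, Pdia3 -0.0450 to 0.36) and S3-like against S1-like cells (Hsp90b1 -0.0644 to 0.29).

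Over all genes, the genotype calls (0) were 1, 23 and 14 in all retained cells without Akita replicate 1, Akita replicate 2 and wild-type replicate 1, 2, 11 and 13 in proximal tubule-like cells, and 1 in each without the filter. In loop of Henle-like cells they were 1 and 2 without Akita replicates 1 and 2 and 1 with shared barcodes in 1 file, as in the interaction. Loop of Henle-like against proximal tubule-like calls (857) were 534 without the summed pair. Distal convoluted tubule-like calls (973) were 618 without Akita replicate 1, 1538 without the filter and 1576 with at least 500 genes. Loop of Henle-like against distal convoluted tubule-like calls (20) ran from 7 without the block to 42 at resolution 2. S3-like against S1-like calls (164) were 73 with DESeq2, 95 without the filter, 350 with 4 libraries as blocks and 44 without the summed pair.

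The groups share replicate numbers, and no label says that a number marks a shared litter, batch or day. Deviations of same-numbered libraries correlated at r = -0.24 in all retained cells, -0.23 in proximal tubule-like and -0.33 in loop of Henle-like cells. Akita replicate 2 and wild-type replicate 1, which differ in number, share cell barcodes. The part of this sharing in the correlations was not tested, so their sign does not show whether the numbers pair the samples. With the replicate block 0 members were called in each, and 75, 65 and 4 genes passed at an unadjusted p under 0.05. With the crossed pairing, added after seeing the data, 0 members and 0, 0 and 1 genes were called, with 111, 121 and 20 at an unadjusted p under 0.05. Class contrasts with shared barcodes left out, loop of Henle-like contrasts with at least 500 genes, and S3-like contrasts with at least 500 genes or shared barcodes in 1 file could not be fitted, because a class fell short of cells. Depth kept Sdf2l1 out of the genotype tests and Sdf2l1, Pdia4 and Xbp1 out of the class tests.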

Other observations

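Barcodes below 200 detected genes (1317 to 1631 per library, median 201 to 252 UMIs) carried the 10 ER genes at a lower level than retained cells in every library: 1683 and 2264 CPM in Akita replicates 1 and 2 and 1687 and 2094 CPM in wild-type replicates 1 and 2, against 4333, 4513, 4002 and 4082 CPM. Kap, the abundant proximal tubule mRNA, was also lower in them, at 7345 to 15037 CPM against 24700 to 39893 CPM. No limit on mitochondrial UMIs was set for these barcodes, and CPM is scaled by all UMIs, mitochondrial ones included. The part of the mitochondrial share in these lower levels was not tested. Hspa5 stood at 365 to 516 CPM in these barcodes, and Akita replicate 1, which had the highest Hspa5 in retained cells, was not the highest here (412 CPM).

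Macrophage or dendritic-like cells, 15 in all, held 30 UMIs of the 10 genes (3379 CPM), of which 8 were Hspa5 and 8 Hsp90b1, too few for a comparison.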
